A study of Homo sapiens with 18 samples.

Results

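The 44 genes described here are the 13 mRNAs encoded by mitochondrial DNA and 31 nuclear genes whose products copy that DNA, transcribe it, process and stabilise its RNAs and translate them. They were taken by symbol from a count table of 27781 genes, and all 44 were found there and passed the filter on low counts. K562, a human erythroid leukemia cell line that carries the BCR-ABL1 fusion, was used throughout. The knockdown cells were transfected with antisense gapmers against the junction where circPCMTD1, a circular RNA from PCMTD1, is closed by backsplicing, and the comparison cells with scrambled gapmers, both for 48 hours. There were 3 biological replicates per group, each sequenced as 3 technical libraries (18 in total). The labels do not say which of the 2 numbers in a library name is the biological replicate, and the first is taken here. The series has no untransfected group and a single cell line. Gapmers are antisense oligonucleotides with a DNA centre that directs RNase H to the paired RNA. The sample descriptions call the same reagents siRNA.

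Human mitochondrial DNA is a small circle whose strands are named heavy and light. POLRMT, the mitochondrial RNA polymerase, transcribes each strand as a long polycistronic RNA with the help of TFAM and TFB2M, and the mRNAs, tRNAs and rRNAs are cut out of it, mostly at the tRNAs. All but 1 of the mRNAs come from the same long transcript, read from the heavy strand, and ND6 comes from the opposite, light-strand transcript. After cutting, levels of single mRNAs are set by polyadenylation, by binding of LRPPRC and SLIRP, and by decay, while POLG, POLG2, TWNK and SSBP1 copy the DNA itself. The products are subunits of respiratory complexes I, III, IV and V, which an erythroid line builds together with subunits imported from the cytosol.

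The opening bases of ND6 and of 3 heavy-strand mRNAs are given here because the results separate ND6 from the others. Start codons are in capitals, each sequence is written 5′ to 3′ as the mRNA reads (with T for U), and coordinates are GRCh38.
ND6, chrM:14614-14673, light-strand transcript: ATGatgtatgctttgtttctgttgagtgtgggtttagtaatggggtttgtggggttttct
ND4, chrM:10760-10819, heavy-strand transcript: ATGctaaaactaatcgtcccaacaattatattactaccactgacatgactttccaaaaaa
COX2, chrM:7586-7645, heavy-strand transcript: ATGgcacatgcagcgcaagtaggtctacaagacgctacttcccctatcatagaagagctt
COX3, chrM:9207-9266, heavy-strand transcript: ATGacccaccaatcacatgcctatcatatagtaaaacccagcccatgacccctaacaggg
Over its 525 bases ND6 was 35.6% G and 7.05% C. The other 12 mRNAs were between 6.28% and 16.2% G and between 29.5% and 35.98% C, so ND6 stood apart in base composition, although its 42.7% G plus C lay inside their range of 39.6% to 47.7%.

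Some mitochondrial genes share bases, and a read from the shared stretch cannot be given to 1 gene alone. ATP8 and ATP6, neighbouring genes for subunits of ATP synthase, share 46 bases, in which the start codon of ATP6 and the stop codon of ATP8 are in capitals. ND4L and ND4 share 7 bases, in capitals at the end of ND4L.
ATP8 and ATP6, chrM:8527-8572, plus strand: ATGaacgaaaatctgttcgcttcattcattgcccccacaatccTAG
ND4L and ND4, chrM:10737-10766, plus strand: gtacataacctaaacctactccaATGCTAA
The shared stretch is 22.2% of ATP8 and 6.75% of ATP6, and 2.36% of ND4L. Values of ATP8 and ND4L therefore rest partly on how reads in an overlap were assigned, which the sources used here do not give. The same holds for reads that also match copies of mitochondrial sequence in the nuclear genome.

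Libraries held between 19118533 and 29432699 counts, and sums over the technical libraries of a replicate between 63851576 and 76087774. Of 15678 genes tested after the count filter, 1745 (11.1%) were raised and 1175 (7.49%) were lowered in knockdown cells (edgeR quasi-likelihood test on the 6 summed samples, adjusted p under 0.05). PCMTD1, the gene that hosts the targeted circle, had 12.6, 11.7 and 12.5 CPM in knockdown samples, against 20.02, 19.8 and 21.9 CPM in scrambled samples (log2 fold change -0.74, adjusted p = 7.57e-10). CPM are counts scaled to a total of 1000000 after scaling of the library totals, and a gene count adds linear and circular RNA. The labels call the cells lymphoblasts. The erythroid markers were present in every library (GATA1 at 212 to 251 CPM and HBG2 at 5035 to 5573 CPM in knockdown libraries, against 214 to 232 and 4910 to 5186 CPM in scrambled libraries), and 6 of the 7 lymphoid markers stayed below 1 CPM in all of them, CD3D being the exception at 5.38 to 7.26 CPM in knockdown and 4.08 to 5.57 CPM in scrambled libraries. Nothing in the labels says whether the replicates came from separate cultures, so the p-values measure the spread between these samples, which may be technical.

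Knockdown libraries 3_2 and 3_3 stood apart from the other 16 in genes of high and low GC content, and were highest over the mitochondrial mRNAs. Deviations were taken within each group, from the mean of its other libraries, and these 2 never entered that mean. Their median deviation over the 13 mitochondrial mRNAs was 0.27 and 0.19 on the log2 scale. Their deviation over the decile of tested genes highest in GC content was -0.15 and -0.17, and over the decile lowest in GC content 0.10 and 0.13. Against the other scrambled libraries, scrambled library 1_3 lay at the other end for the mitochondrial mRNAs, at -0.24, a deviation larger in size than that of knockdown library 3_3. Its highest and lowest GC deciles were at 0.04 and -0.04. Each count of members is therefore given with and without knockdown libraries 3_2 and 3_3, and also after a trend on GC content was removed from each sample. Without the 2 libraries 2589 genes (16.5%) were raised and 2426 (15.5%) lowered of 15653 tested. With the GC correction 2320 (14.8%) were raised and 2620 (16.7%) lowered.

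**Figure D1:**
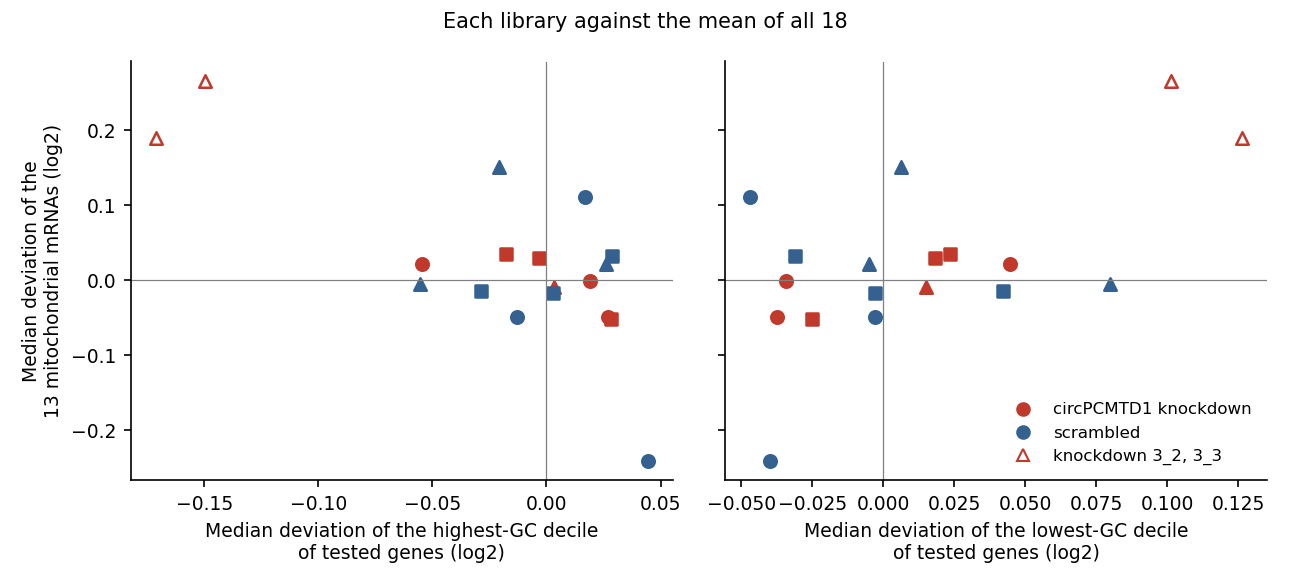
Median log2 deviation of the 13 mitochondrial mRNAs (vertical axis) against that of the highest-GC decile (left) and lowest-GC decile (right) of tested genes, each of the 18 libraries being 1 point (circles, squares and triangles are replicates 1, 2 and 3). Each deviation is from the mean of the other libraries of the same group, and not from all 18 as the heading reads. Knockdown libraries 3_2 and 3_3 are left out of that mean. Knockdown libraries 3_2 and 3_3 (open triangles) sit at 0.27 and 0.19 on the vertical axis and at -0.15 and -0.17 for the highest-GC genes, and scrambled library 1_3 is lowest at -0.24.

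The 13 mitochondrial mRNAs together took 2.34% to 2.81% of all counts in knockdown libraries (median 2.41%), against 2.09% to 2.52% in scrambled libraries (median 2.32%). Over summed samples the share was 2.48% ± 0.150 in knockdown and 2.33% ± 0.0632 in scrambled cells (SD, n = 3 each), and knockdown replicate 1, at 2.38%, lay below scrambled replicate 3, at 2.39%. The highest knockdown values came from libraries 3_2 (2.81%) and 3_3 (2.73%), and the remaining 7 knockdown libraries lay between 2.34% and 2.44%, inside the range of the scrambled libraries. As a share of nuclear counts alone the medians were 2.47% in knockdown and 2.37% in scrambled libraries. The 31 nuclear genes together took 0.282% to 0.292% of counts in knockdown libraries and 0.285% to 0.294% in scrambled libraries, ranges that overlap. In bulk RNA of this kind, fewer cells with a transcript and less of it per cell cannot be told apart.

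**Figure D2:**
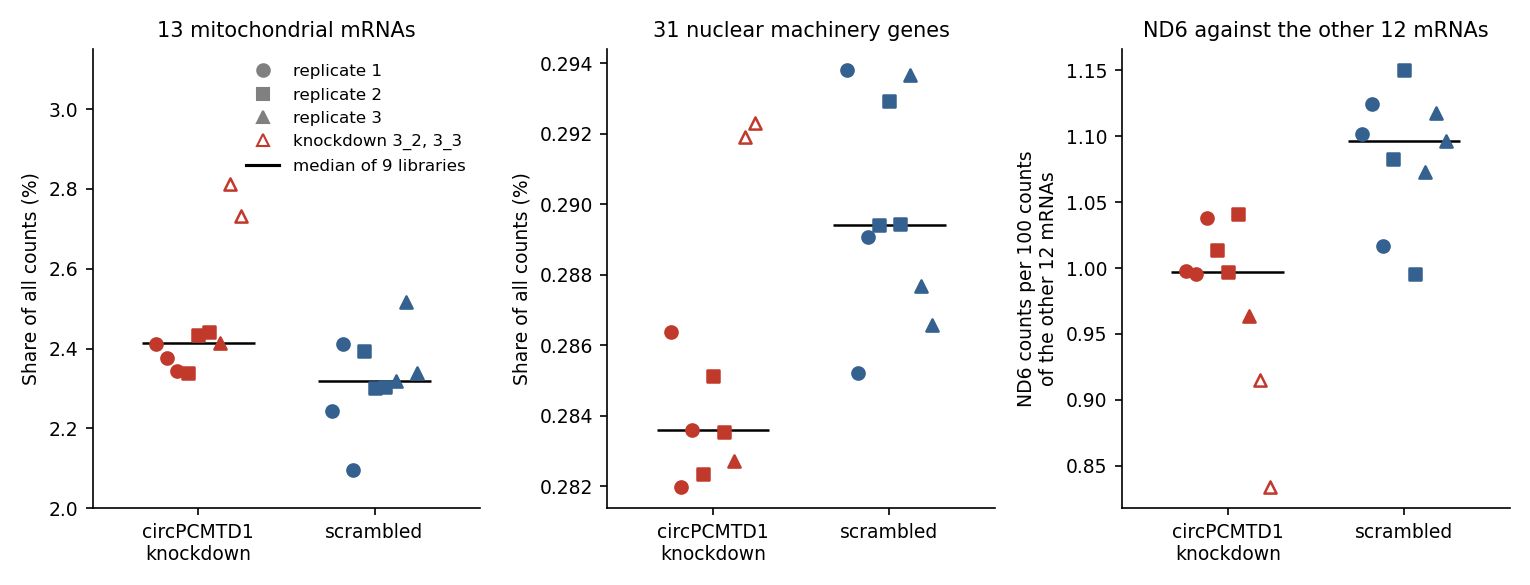
Share of all counts (%) of the 13 mitochondrial mRNAs (left) and of the 31 nuclear machinery genes (middle), and ND6 counts per 100 counts of the other 12 mRNAs (right), 1 point per library with knockdown left of scrambled and bars at the median of 9 libraries. Knockdown libraries 3_2 and 3_3 (open) are the highest in the left panel at 2.81% and 2.73%, and in the right panel the knockdown median is 0.997 against 1.10 in scrambled libraries.

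Of the 13 mitochondrial mRNAs, 5 were raised in knockdown cells (ND4, COX2, COX3, ATP6 and ATP8), ND6 was lowered, and 7 were not called. Their median log2 fold change was 0.10, beside 0.0022 over all genes tested, and 12 of the 13 values were positive. The 5 of 13 stand against a background of 11.1% raised among all genes tested. Every change was small: the largest fold change in size among the 44 genes was 0.18 on the log2 scale. The level of 4 of the 13 did not overlap between the 3 knockdown and the 3 scrambled samples, where 34.6% of all genes tested did not overlap. None of the 13 was free of overlap across the 9 against 9 single libraries, where 5.12% of genes were.

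COX2, a copper-binding core subunit of cytochrome c oxidase (complex IV), had 1354, 1385 and 1521 CPM in knockdown samples, against 1291, 1293 and 1332 CPM in scrambled samples. The 3 knockdown samples lay above all 3 scrambled samples, with replicate 3 highest. The log2 fold change was 0.12 ± 0.03 (SE), an increase of 8.77% (adjusted p = 0.0080). COX3, the other called subunit of complex IV, had 2379, 2402 and 2725 CPM in knockdown samples, against 2251, 2268 and 2309 CPM in scrambled samples. Here too the groups did not overlap (log2 fold change 0.14 ± 0.04, adjusted p = 0.0322). COX1, the catalytic subunit of the same enzyme and the most abundant of the 13, had 7628, 7740 and 8391 CPM against 7476, 7707 and 7714 CPM in scrambled samples, with overlapping groups and a log2 fold change of 0.05 that was not called (adjusted p = 0.189).

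Of the 7 complex I subunits, ND4, a subunit of the membrane arm that pumps protons, was raised. It had 2475, 2480 and 2740 CPM in knockdown samples, against 2285, 2365 and 2421 CPM in scrambled samples, without overlap (log2 fold change 0.12 ± 0.03, adjusted p = 0.0074). ND4L, its neighbour on the same transcript, had 162, 174 and 205 CPM in knockdown samples against 156, 156 and 164 CPM in scrambled samples. Its fold change, 0.18, was the largest of the 44, but knockdown replicate 3 lay far above the others and the gene was not called (SE 0.09, adjusted p = 0.218). The membrane-arm subunits ND1, ND2, ND3 and ND5 had log2 fold changes of 0.03, 0.04, 0.10 and 0.08, each with overlapping samples and with adjusted p-values of 0.482, 0.473, 0.206 and 0.0967. CYTB, the cytochrome b of complex III, was at 0.08 and was not called either (adjusted p = 0.073).

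Both ATP synthase genes were raised. ATP6, which forms part of the proton channel, had 2044, 2080 and 2279 CPM in knockdown samples, against 1898, 1999 and 2066 CPM in scrambled samples. ATP8, a small subunit beside it in the membrane part, had 168, 174 and 189 CPM against 149, 160 and 173 CPM in scrambled samples. In both genes scrambled replicate 3 lay above knockdown replicate 1, so the groups overlapped although both were called (log2 fold changes 0.10 ± 0.03 and 0.14 ± 0.05, adjusted p = 0.0407 and 0.0465). The 2 genes share 46 bases on the same strand, and whether reads there were counted for both is not known. Their 2 calls are therefore not independent.

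ND6, a subunit of the membrane arm of complex I and the only mRNA of the light-strand transcript, went the other way. It had 236.7, 241.3 and 234.8 CPM in knockdown samples, against 246.3, 248.4 and 260.0 CPM in scrambled samples. All 3 knockdown samples lay below all 3 scrambled samples, and ND6 was 5.54% lower on the linear scale of the fitted fold (log2 fold change -0.08 ± 0.03, adjusted p = 0.0385). Among single libraries the groups overlapped, since scrambled library 1_3 was the lowest of all 18 at 211 CPM and scrambled library 2_3 was at 228 CPM, against 224 to 254 CPM in knockdown libraries.

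A ratio within a library sets ND6 against the other mRNAs of the same organelle. Per 100 counts of the 12 heavy-strand mRNAs, ND6 had 0.834 to 1.04 counts in knockdown libraries (median 0.997), against 0.996 to 1.15 in scrambled libraries (median 1.10). In summed samples the ratio was 1.01, 1.02 and 0.900 in knockdown replicates 1, 2 and 3, and 1.09, 1.07 and 1.10 in scrambled replicates 1, 2 and 3, with no overlap. The 2 lowest libraries were again knockdown 3_3 and 3_2, at 0.834 and 0.915, and the 7 other knockdown libraries lay between 0.964 and 1.04, overlapping 2 scrambled libraries, 1_3 at 1.02 and 2_3 at 0.996. A ratio shows unequal change and not which of its parts moved. If reads were counted without regard to strand, which is not known, RNA of the opposite strand could also count for ND6.

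Among the counts of all 13 mRNAs, the shares of ND1 and ND2 were also lower in every knockdown sample than in any scrambled sample (5.43% ± 0.0574 against 5.59% ± 0.0605 for ND1, and 13.5% ± 0.0140 against 13.9% ± 0.222 for ND2; SD, n = 3 each). The shares of ND4, COX2, COX3 and ATP6 were higher in every knockdown sample. ND4 made up 10.4% ± 0.0480 of the pool in knockdown samples and 10.1% ± 0.0532 in scrambled samples, and COX3 10.1% ± 0.191 in knockdown samples and 9.73% ± 0.121 in scrambled samples. ND3, ND4L, ND5, CYTB, COX1 and ATP8 overlapped. In single libraries the 7 knockdown libraries other than 3_2 and 3_3 had ND4 at 10.19% to 10.5%, against 9.64% to 10.3% in the 9 scrambled libraries, and ND1 at 5.34% to 5.59% against 5.08% to 5.98%, so those ranges overlapped. These shares sum to 100%, so a gain of one is a loss of others, and no test was run on them.

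**Figure D3:**
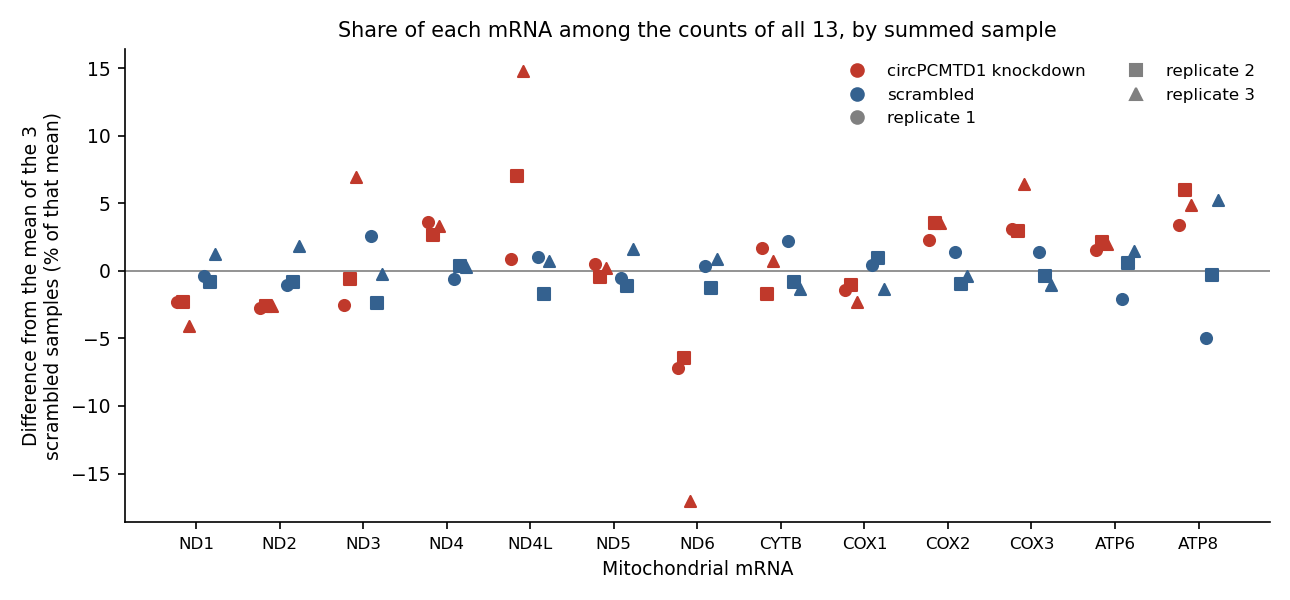
Share of each mRNA among the counts of all 13, drawn as the difference in percent from the mean of the 3 scrambled samples, 1 point per summed sample with knockdown left of scrambled. ND6 is below every scrambled sample in all 3 knockdown samples, ND1 and ND2 are lower as well, and ND4, COX2, COX3 and ATP6 are higher.

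Levels of different genes are compared here per kilobase, the length being the union of all annotated exons of a gene. COX1 led at 5136 ± 267 CPM per kb in knockdown samples and 4950 ± 87.5 in scrambled samples (SD, n = 3 each). ND2, COX3 and ATP6 followed between 3134 and 3195 CPM per kb in knockdown samples and between 2903 and 3114 in scrambled samples, and these 3 lay within their spread of one another in knockdown cells. COX2 (2076 in knockdown, 1909 in scrambled), ND4 (1861, 1711), ND1 (1400, 1369) and CYTB (1040, 983) came next. ND5 and ATP8, at 905 and 856 CPM per kb in knockdown samples and 857 and 776 in scrambled samples, were close to each other, and ND4L (607, 534), ND6 (453, 479) and ND3 (130, 122) were lowest. TUFM was the highest of the nuclear genes, close to ND3, at 122 ± 5.95 CPM per kb in knockdown and 124 ± 3.25 in scrambled samples, and MTERF4 was lowest at 2.31 and 2.60. The union can be longer than any single transcript, so the order of the nuclear genes depends on it. MTERF4 had 9938 bases and means of 23.0 CPM in knockdown and 25.8 CPM in scrambled samples. TEFM had 3224 bases and means of 10.8 and 10.3 CPM. A short transcript can lose reads in size selection, which may lower the level of ND3 (346 bases). ND4L and ATP8 (297 and 207 bases) overlap ND4 and ATP6 on the same strand, so their gene length need not be that of a separate transcript. Their levels depend instead on how reads in the overlaps were assigned. The levels of ND3, ND4L and ATP8 are therefore less certain than the others.

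The calls among the mitochondrial mRNAs depended on the libraries used. Knockdown libraries 3_2 and 3_3 had the highest median deviations of their group over these same mRNAs, so leaving them out lowers the knockdown median. Scrambled library 1_3, the lowest of its group, was kept. Knockdown replicate 3 then rests on library 3_1 alone. Without knockdown libraries 3_2 and 3_3 the median log2 fold change was 0.02, 3 of the 13 values were negative, and 4 were raised (ND4, ND4L, COX2 and COX3, at 0.07, 0.08, 0.06 and 0.08), beside a background of 16.5%. ATP6 and ATP8 were not called there (adjusted p = 0.445 and 0.430). With the GC correction none was raised, while the median was 0.09 and the adjusted p-values of the 5 ran from 0.0851 to 0.181. The fold changes of the 5 moved little under the correction, while their standard errors rose. ND4 went from 0.122 ± 0.031 to 0.124 ± 0.039, and COX3 from 0.136 ± 0.040 to 0.141 ± 0.056 (SE). ND6 was lowered without the 2 libraries and with the GC correction (log2 fold change -0.09 and -0.08, adjusted p = 2.52e-05 and 0.0103). Leaving out whole replicates, COX3 was called in all 6 fits with 1 replicate less (largest adjusted p = 0.0487), ND4 was lost without scrambled replicate 1 (adjusted p = 0.0792), and COX2 without scrambled replicate 1 or 2 (0.0576 and 0.0519). ATP6 was lost without knockdown replicate 3 (0.506), scrambled replicate 1 (0.239) or scrambled replicate 2 (0.0844), and ATP8 without each of these (0.508, 0.222 and 0.0828) or without knockdown replicate 2 (0.112). ND6 kept its call only without knockdown replicate 3 (0.00186), with adjusted p-values of 0.0902 and 0.0566 without knockdown replicates 1 and 2 and of 0.0606, 0.0957 and 0.262 without scrambled replicates 1, 2 and 3. Where libraries were summed by the second number of their names, 1 of the 13 was raised (COX1) and ND6 was not called (adjusted p = 0.441), so these calls also rest on which number marks the biological replicate. In that fit 2589 of all 15674 genes tested were raised and 2389 lowered. What set knockdown libraries 3_2 and 3_3 apart was not tested.

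**Figure D4:**
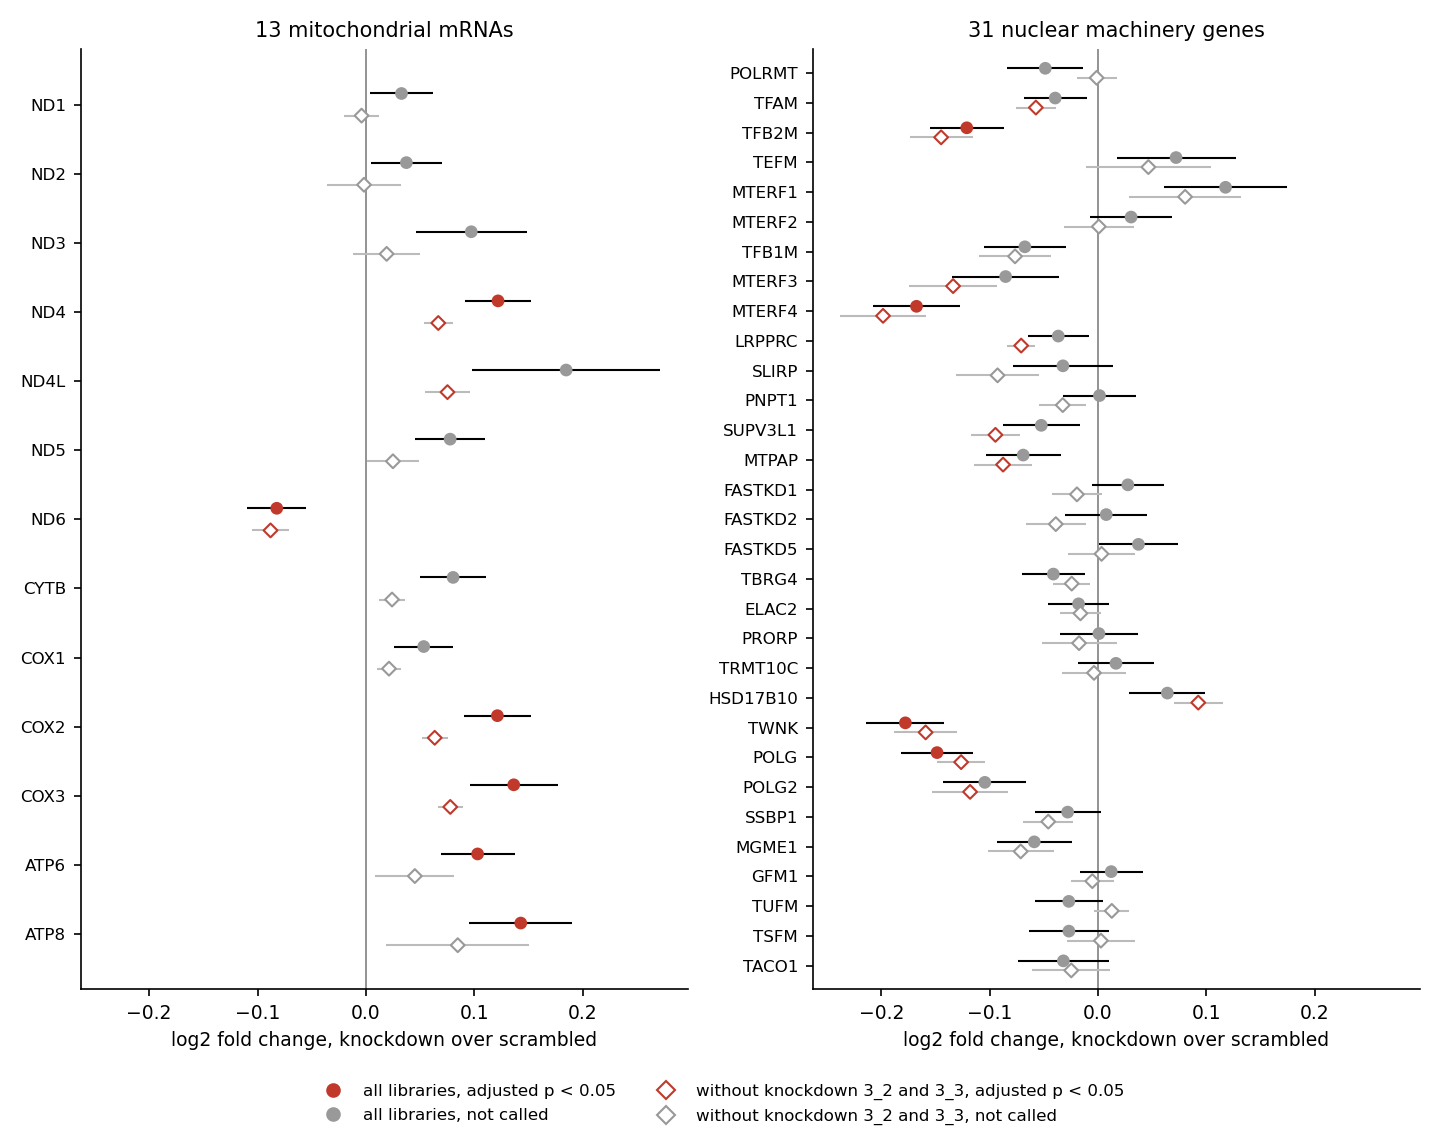
Log2 fold change, knockdown over scrambled, with its standard error for the 13 mitochondrial mRNAs (left) and the 31 nuclear genes (right), from all libraries (circles) and without knockdown libraries 3_2 and 3_3 (diamonds), red where the adjusted p is below 0.05. All mitochondrial mRNAs but ND6 lie above 0 with all libraries and most move towards 0 without the 2 libraries, while TWNK, POLG, MTERF4 and TFB2M stay below 0 in both.

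Of the 31 nuclear genes, none was raised and 4 were lowered: TWNK, POLG, MTERF4 and TFB2M. The median log2 fold change was -0.03, and 20 of the 31 values were negative. The 4 of 31 stand against a background of 7.49% lowered among all genes tested. The summed samples of 7 of the 31 did not overlap (the 4 called genes with POLG2, SSBP1 and MGME1), beside 34.6% of all genes. Without knockdown libraries 3_2 and 3_3, 1 was raised (HSD17B10) and 10 were lowered, beside 15.5% of all genes, and the median was -0.03. With the GC correction none was raised and 10 were lowered, beside 16.7%, with a median of -0.04.

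The replication group held the 2 lowest adjusted p-values. TWNK, the helicase that opens mitochondrial DNA ahead of the polymerase (chr10:100987367-100994401, plus strand), had 43.3, 45.0 and 42.7 CPM in knockdown samples, against 48.7, 51.1 and 48.3 CPM in scrambled samples. Its 9 knockdown libraries ran from 39.4 to 45.5 CPM with a median of 44.7, and its 9 scrambled libraries from 47.1 to 51.8 CPM with a median of 50.4. Every knockdown library lay below every scrambled library, as was so in either direction for 5.12% of genes. TWNK was 11.6% lower (log2 fold change -0.18 ± 0.04, adjusted p = 0.0012).

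POLG, the catalytic subunit of the mitochondrial DNA polymerase (chr15:89305198-89334861, minus strand), had 101.5, 96.6 and 93.2 CPM in knockdown samples, against 109.6, 107.3 and 106.0 CPM in scrambled samples. Its knockdown libraries ran from 90.1 to 103.9 CPM and its scrambled libraries from 104.4 to 111.1 CPM, again with no overlap. The log2 fold change was -0.15 ± 0.03 (adjusted p = 0.0030), and knockdown replicate 3, with libraries 3_2 and 3_3, was lowest. POLG2, its accessory subunit, had 29.8, 29.3 and 29.9 CPM against 31.8, 31.02 and 33.0 CPM in scrambled samples, without overlap of summed samples, and was not called (log2 fold change -0.10, adjusted p = 0.0610). SSBP1, which coats single-stranded mitochondrial DNA, and MGME1, a nuclease that trims replication ends, were at -0.03 and -0.06 with adjusted p-values of 0.579 and 0.261. All 5 replication genes had negative values, with a median of -0.10.

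MTERF4, which brings the methyltransferase NSUN4 to the mitochondrial ribosome (chr2:241072169-241102332, minus strand), had 22.8, 22.8 and 23.4 CPM in knockdown samples, against 25.2, 26.05 and 26.3 CPM in scrambled samples. The summed samples did not overlap, while single libraries did (21.1 to 26.3 CPM in knockdown, 23.9 to 29.02 CPM in scrambled), and knockdown library 3_3 was the highest of its group. The log2 fold change was -0.17 ± 0.04 (adjusted p = 0.0052). In the same group TFB1M, which dimethylates the small ribosomal RNA, and MTERF3, linked to transcription and to assembly of the ribosome, were at -0.07 and -0.09 and were not called (adjusted p = 0.240 and 0.254).

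TFB2M, the transcription factor that opens the promoter for POLRMT (chr1:246540560-246566324, minus strand), had 43.4, 43.8 and 45.4 CPM in knockdown samples, against 48.2, 47.9 and 48.0 CPM in scrambled samples. The groups did not overlap (log2 fold change -0.12 ± 0.03, adjusted p = 0.0154). In single libraries knockdown 3_2 reached 48.1 CPM, inside the scrambled range of 45.9 to 50.7 CPM. POLRMT itself was at -0.05 and TFAM, which packages mitochondrial DNA and bends its promoters, at -0.04, with adjusted p-values of 0.372 and 0.383. The elongation factor TEFM (0.07), the terminator MTERF1 (0.12) and its relative MTERF2 (0.03) had positive values and were not called.

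**Figure D5:**
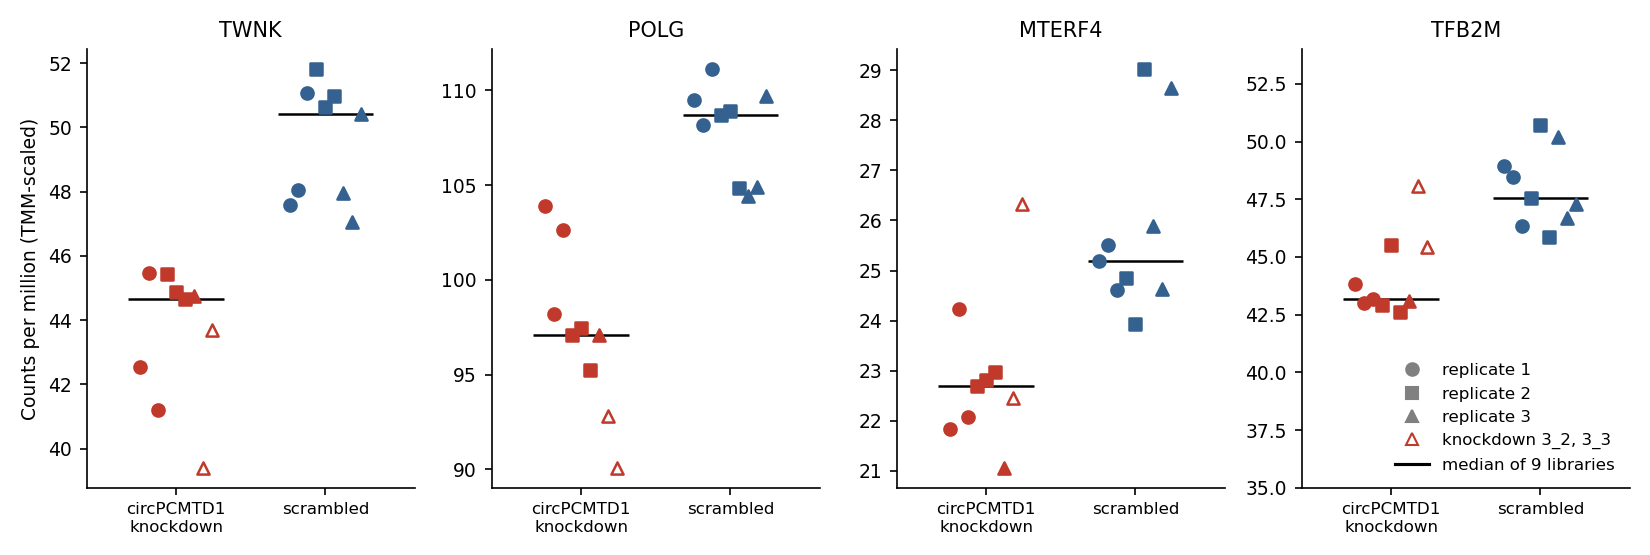
CPM of TWNK, POLG, MTERF4 and TFB2M in each library, knockdown left of scrambled, with bars at the median of 9 libraries and open triangles for knockdown libraries 3_2 and 3_3 (vertical axes do not start at 0). In TWNK and POLG all 9 knockdown libraries lie below all 9 scrambled libraries, at 39.4 to 45.5 against 47.1 to 51.8 and at 90.1 to 103.9 against 104.4 to 111.1, and in MTERF4 and TFB2M the groups overlap.

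TWNK, POLG and MTERF4 were called in each of the 19 alternative fits, with adjusted p-values of at most 0.0231, 0.0328 and 0.0348. TFB2M was called in 14 of them and was lost in 5 of the 6 fits with 1 replicate less, all but that without knockdown replicate 3, at adjusted p-values of 0.0569 to 0.0674. Of these genes 3 share exon bases with a gene on the opposite strand, which matters if reads were counted without regard to strand. The share was 51.0% of MTERF4 with SNED1, 7.66% of POLG with FANCI and 3.61% of TWNK with MRPL43. SNED1 was at a median of 0 CPM in knockdown and 0.039 CPM in scrambled libraries, FANCI at 236 CPM in knockdown and 237 CPM in scrambled libraries, and MRPL43 at 21.2 CPM in knockdown and 20.3 CPM in scrambled libraries.

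The genes for RNA stability, polyadenylation and decay were 9 of the 31, and none was called with all libraries. LRPPRC, which binds and stabilises the heavy-strand mRNAs, had 568.0, 576 and 622 CPM in knockdown samples, against 604, 604 and 603 CPM in scrambled samples. Knockdown replicate 3, which holds libraries 3_2 and 3_3, lay above the scrambled samples and the other 2 below them, with a log2 fold change of -0.04 (adjusted p = 0.407). Without the 2 libraries LRPPRC was lowered, at -0.07. Its partner SLIRP was at -0.03, and was not called without the 2 libraries either (adjusted p = 0.0545). The exonuclease PNPT1 and the helicase SUPV3L1, which form the mitochondrial degradosome, were at 0.0014 and -0.05, and the polymerase MTPAP, which adds the poly(A) tails, at -0.07. The FASTK family members FASTKD1, FASTKD2, FASTKD5 and TBRG4 (FASTKD4), which act on single mitochondrial mRNAs or on rRNA, were at 0.03, 0.0076, 0.04 and -0.04. SUPV3L1 and MTPAP were lowered without the 2 libraries, and MTPAP and TBRG4 with the GC correction.

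None of the 4 tRNA-processing genes was called with all libraries. ELAC2, which cuts the 3′ ends of tRNAs, was at -0.02. The 3 subunits of mitochondrial RNase P, which cuts the 5′ ends, were at 0.0009 (the nuclease PRORP), 0.02 (the methyltransferase TRMT10C) and 0.06 (HSD17B10). HSD17B10, also a dehydrogenase, had 91.7, 88.4 and 82.7 CPM in knockdown samples, against 85.0, 83.7 and 82.8 CPM in scrambled samples, and was the gene raised without the 2 libraries (log2 fold change 0.09, adjusted p = 0.00059). The translation genes showed no call with all libraries: the elongation factors GFM1, TUFM and TSFM were at 0.01, -0.03 and -0.03, and TACO1, an activator of COX1 translation, at -0.03, with adjusted p-values from 0.606 to 0.822. The remaining genes called without the 2 libraries were TFAM, MTERF3 and POLG2, and those with the GC correction were POLRMT, TFAM, LRPPRC and POLG2, in every case lowered.

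Promoters are shown for 3 of the 4 lowered nuclear genes because these 4 moved in the same direction. The RefSeq table (GRCh38.p14) matched 28 of the 31 nuclear genes, without TWNK, MTERF3 and FASTKD5, and gives 250 bases before and 50 after the transcription start. They were searched on both strands for a core of the NRF1 motif (GCGCATGCG) and of the ETS motif bound by GABP (CCGGAAG), factors known for driving nuclear genes of mitochondria. Neither motif contains the other, and matches are in capitals.
POLG, chr15:89334775-89335074, minus strand: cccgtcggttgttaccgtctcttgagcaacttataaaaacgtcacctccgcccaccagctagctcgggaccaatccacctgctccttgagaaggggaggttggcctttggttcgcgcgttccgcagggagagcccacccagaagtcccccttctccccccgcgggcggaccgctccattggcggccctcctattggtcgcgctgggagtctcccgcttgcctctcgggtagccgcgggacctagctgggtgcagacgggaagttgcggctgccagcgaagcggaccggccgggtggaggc
TFB2M, chr1:246566212-246566511, minus strand: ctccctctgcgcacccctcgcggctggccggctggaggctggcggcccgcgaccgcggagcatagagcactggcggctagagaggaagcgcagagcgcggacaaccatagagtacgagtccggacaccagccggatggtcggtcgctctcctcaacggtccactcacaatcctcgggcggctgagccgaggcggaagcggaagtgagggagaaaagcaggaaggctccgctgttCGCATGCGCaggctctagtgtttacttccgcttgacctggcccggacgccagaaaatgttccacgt
MTERF4, chr2:241102238-241102537, minus strand: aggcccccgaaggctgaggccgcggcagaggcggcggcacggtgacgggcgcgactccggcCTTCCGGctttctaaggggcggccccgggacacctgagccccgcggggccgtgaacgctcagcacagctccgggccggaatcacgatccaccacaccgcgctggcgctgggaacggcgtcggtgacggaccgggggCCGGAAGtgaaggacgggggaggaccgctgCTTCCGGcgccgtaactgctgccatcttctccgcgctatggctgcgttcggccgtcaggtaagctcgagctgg
The window of MTERF4 held 3 ETS matches, that of TFB2M 1 NRF1 match, and that of POLG neither. Of the 28 members 15 held at least 1 of the 2, beside 21.3% of the 11523 tested genes with a promoter and 12.3% of all 27305 promoters. The NRF1 letters were in 4 of the 28 and in 3.66% of tested genes, and the ETS letters in 13 of the 28 and in 18.6% of tested genes. TFB1M and POLRMT, which were not called, held both. Whether matches go with the calls was not tested, and only 3 of the 4 lowered genes had a promoter here.

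Other RNAs of the mitochondrial genome were few in these libraries, which were depleted of rRNA. The 22 tRNA genes and 2 rRNA genes yielded 17 tested genes, of which none was raised and 2 tRNAs were lowered, both encoded opposite to the heavy-strand mRNAs as ND6 is. TRNP had 24.1, 20.9 and 24.0 CPM in knockdown samples, against 25.4, 26.4 and 25.6 CPM in scrambled samples (log2 fold change -0.17 ± 0.05, adjusted p = 0.0201). TRNS1 had 3.11, 3.25 and 3.38 CPM against 4.25, 3.64 and 3.79 CPM in scrambled samples (log2 fold change -0.27 ± 0.09, adjusted p = 0.0390). In each gene the 3 knockdown samples lay below the 3 scrambled samples. Of the 17, 2 lowered stand against 7.49% of all genes. None was raised and 2 were lowered without libraries 3_2 and 3_3 of the knockdown group, against 15.5%. TRNP lost its call without knockdown replicate 2, scrambled replicate 2 or scrambled replicate 3 (adjusted p = 0.0528 to 0.1604). TRNS1 lost its call in DESeq2 and without knockdown replicate 1 or 2 or scrambled replicate 1 or 3 (adjusted p = 0.0694 to 0.218). The rRNA genes RNR1 and RNR2 were not called (log2 fold change -1.17 and -1.04, adjusted p = 0.422 and 0.370). Together they held 53 to 105 counts in knockdown libraries, 67 to 156 in 8 scrambled libraries and 868 in scrambled library 2_3. Over all 30 tested mitochondrial genes, the 8 encoded on the minus strand had 3 lowered and none raised, with a median of -0.09 and 7 negative values. The 22 on the plus strand had 5 raised and none lowered, with a median of 0.08 and 6 negative values. These counts stand beside 11.1% raised and 7.49% lowered among all genes. The split by strand was not among the planned comparisons, and the 3 lowered genes are ND6, TRNP and TRNS1, already described. Leaving out knockdown libraries 3_2 and 3_3, the minus strand had 3 of 8 lowered and none raised (median -0.12), and the plus strand 4 of 22 raised and none lowered (median 0.02), beside 16.5% raised and 15.5% lowered. With the GC correction the minus strand again had 3 lowered and the plus strand no call, beside 14.8% raised and 16.7% lowered. Mature tRNAs are shorter than the fragments this kind of library keeps, so these counts are of what remained of them or of precursors. The strand setting of the counting is not known, so reads of the opposite strand may be among the counts of minus-strand genes.

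A further 6 lists of related nuclear genes, tested in the same fit, are set beside the members. All had more genes lowered than raised except nucleotide supply, where SAMHD1, which degrades dNTPs, was raised (22.8, 21.97 and 23.0 CPM against 18.6, 18.9 and 20.1 CPM in scrambled samples, log2 fold change 0.23 ± 0.04) and none of 12 was lowered. Among 30 genes of mitochondrial RNA modification, NGRN, needed for the large ribosomal RNA, and TRMU, which thiolates tRNAs, were lowered (log2 fold change -0.13 each). Among 26 translation factors METAP1D, a methionine aminopeptidase, and the ribosome-assembly GTPases MTG1 and MTG2 were lowered, at -0.18, -0.17 and -0.10. Among 16 genes of DNA topology and the nucleoid TOP3A, a topoisomerase, LONP1, a protease, and SHMT2, an enzyme of one-carbon metabolism, were lowered, at -0.14, -0.13 and -0.11. PPRC1, a coactivator of the PGC-1 family, was the only one lowered of 9 transcriptional regulators (-0.11), and BCS1L, an assembly factor of complex III, of 20 assembly partners (-0.18). With all libraries none of these 5 lists had a raised gene, beside the background of 11.1% raised and 7.49% lowered. Their medians lay between -0.04 and 0.00043, and that of nucleotide supply at -0.05. Without knockdown libraries 3_2 and 3_3 the lowered genes numbered 6 of 30 in RNA modification, 4 of 26 in translation, 5 of 16 in topology and nucleoid, 4 of 12 in nucleotide supply, 2 of 9 regulators and 3 of 20 assembly partners, beside 15.5% of all genes. In that fit 1 gene was raised in RNA modification, 2 in topology and nucleoid and 1 in nucleotide supply, beside 16.5%. With the GC correction the lowered genes numbered 11, 4, 6, 3, 3 and 3 in the same order of lists, beside 16.7% of all genes, and 1 gene each was raised in RNA modification, translation and nucleotide supply and 2 among assembly partners, beside 14.8%. SAMHD1, METAP1D and BCS1L were called in all 19 alternative fits. Without scrambled replicate 1 the calls of NGRN, TRMU, MTG1, MTG2, LONP1, SHMT2 and PPRC1 were lost, without scrambled replicate 2 those of NGRN, TRMU, MTG2, TOP3A, SHMT2 and PPRC1, without knockdown replicate 1 that of TRMU, without knockdown replicate 2 those of TRMU and MTG2, and without scrambled replicate 3 or scaling factors that of MTG2, at adjusted p-values between 0.0520 and 0.146.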

How the data were processed

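RNA was extracted with TRIzol and a clean-up kit and made into directional libraries after rRNA depletion, per the labels' protocols. The authors' tools, per the submitters' processing notes, were Trim Galore, STAR and featureCounts with GRCh38; the sources used here give no versions, annotation or strand setting. The deposited file holds raw counts per gene symbol.

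Technical libraries were summed by the first number of their label, giving 3 samples per group. Counts were tested with edgeR 4.0.16 (R 4.3.3; filterByExpr, TMM factors, robust quasi-likelihood) with Benjamini-Hochberg adjustment over 15678 genes, and called at an adjusted p below 0.05. CPM used TMM-scaled totals, and library deviations used log2(CPM + 1). Alternatives were other scalings and count filters, DESeq2 1.42.0, the replicate block, libraries entered singly or summed by the second number, removal of a lowess trend (span 0.3) with the GC content of transcripts (96.8% of tested genes had a value), libraries 3_2 and 3_3 left out, and each replicate left out. Gene models came from GENCODE 29. The procedure was also run on simulated counts. The changes put into them were larger than that of any member, so changes as small as the members' were not covered. Analysis used Python 3.11.15, pandas 2.3.3 and matplotlib 3.10.9.

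The members and lists were chosen with earlier results of these data known. Named are all members, PCMTD1, and of each related list up to 3 called genes by smallest p; other genes named (marker genes and genes overlapping a member) serve as checks.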

Additional observations from a re-analysis of the deposited data

Results flagged for a closer look

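In 124 comparisons of 9 libraries of a group, 6 had a highest or lowest library set apart from its neighbour by more than Dixon's 95% limit; chance flags about 1 in 20. PNPT1 was lowest in scrambled library 1_2 at 97.1 CPM, the other 8 lying between 102.7 and 106.7 CPM. TSFM was highest in scrambled library 1_3 at 43.9 CPM, the others lying between 38.4 and 40.3 CPM. RNR1 and RNR2, the mitochondrial rRNAs that the kit removes, stood at 17.3 and 16.9 CPM in scrambled library 2_3, against 1.10 to 2.43 and 1.57 to 3.24 CPM in the other scrambled libraries. PCMTD1 was highest in scrambled library 3_1 at 24.1 CPM, the others lying between 18.6 and 21.3 CPM. SAMHD1 was lowest in knockdown library 2_3 at 19.7 CPM, the others lying between 22.1 and 24.0 CPM.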

How the results depend on the processing

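No member called with all libraries changed its direction in any of the 19 alternative fits. Raised mitochondrial mRNAs, 5 with all libraries, numbered 3 without scaling factors, 7 without the count filter and 2 in DESeq2. They numbered 1 with libraries entered singly or summed by the second number, and 4 without knockdown libraries 3_2 and 3_3. With the GC correction they numbered 0, with the replicate block 10, with both 10, and with a replicate left out 1 to 9. Lowered mitochondrial mRNAs, 1 with all libraries, numbered 0 with upper-quartile factors, without scaling factors, with libraries entered singly and summed by the second number, and 0 to 1 with a replicate left out. Raised nuclear genes, 0 with all libraries, numbered 2 summed by the second number, 1 without knockdown libraries 3_2 and 3_3, and 0 to 1 with a replicate left out. Lowered nuclear genes, 4 with all libraries, numbered 6 with libraries entered singly, 8 summed by the second number and 10 without the 2 libraries. They numbered 10 with the GC correction, 10 with that and the replicate block, 5 with the replicate block alone, and 3 to 10 with a replicate left out. The median of the nuclear genes was -0.02 without scaling factors and -0.039 with the GC correction, with or without the block. Over all genes 1127 to 2482 were raised and 623 to 2280 lowered with a replicate left out. Of 15678 genes tested, 1939 were raised and 942 lowered without scaling factors, and 1395 and 1125 in DESeq2. Upper-quartile factors gave 1831 raised and 1053 lowered. Without the count filter 1790 of 23225 genes were raised and 1334 lowered. Raised genes numbered 2213 with the replicate block, 2137 of 13830 with libraries singly and 2589 of 15674 by the second number. They numbered 2320 with the GC correction and 2309 with the correction and the block. Lowered genes numbered 1772 with the replicate block, 2036 with libraries singly, 2389 by the second number, 2426 without the 2 libraries, 2620 with the GC correction and 2633 with the correction and the block. The causes were not tested.

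Samples with the same number were not taken as paired in the main fit. The correlations of their deviations were weak, at 0.110, 0.0025 and 0.137 for numbers 1, 2 and 3. The highest between different numbers was 0.081, and 4 of 6 samples correlated best with their own number. These values do not settle whether the samples were paired. Under the block ND3, ND4L, ND5, CYTB and COX1 were called as well. Fold changes of the members are below 1.2-fold, and p-values rest on 3 summed samples per group.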
